A study of Mus musculus with 10 samples.

Results

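Lipid transport and drug efflux genes on a mouse immune panel were examined in melanomas grown in mice with and without the ubiquitin ligase Siah2. The 7 genes are *Abca1*, *Abcg1*, *Abcb1a*, *Apoe*, *Lrp1*, *Cd36* and *Pparg*, of 770 genes with a probe. They were chosen by symbol, for their function and with the differences between these tumors known, so their Siah2 KO minus WT values are a description. YUMMER1.7 cells, a mouse melanoma line with mutant *Braf* and a high mutation burden, were injected into WT mice or into mice with a germline deletion of *Siah2* in all cells. The injected cells were the same in both groups and were not made deficient in Siah2. Tumors were taken on day 11 after injection by the labels, while the legend of the study's panel analysis gives an earlier day. They were 5 from Siah2 WT mice (WT2 to WT6) and 5 from Siah2 KO mice (KO1, KO2, KO3, KO5 and KO6), with no further treatment in the labels. The labels do not give the age of the mice. RNA of the whole tumor was hybridized to the NanoString PanCancer Immune Profiling panel, which counts barcoded probes bound to single RNA molecules and has no probe for *Siah2*. Values are normalized counts, scaled by the authors to 20 reference genes in each tumor.

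Cells take up lipoproteins and lipids through surface receptors and return cholesterol to the outside through ATP-binding cassette (ABC) transporters. *Abca1* and *Abcg1* export cholesterol and phospholipid to apolipoproteins and to high density lipoprotein, and both are classical targets of the oxysterol-sensing liver X receptors. *Apoe* encodes the apolipoprotein that accepts such lipid and carries it to receptors, among them the endocytic receptor *Lrp1*. *Cd36* is a scavenger receptor and fatty acid transporter and a classical target of the nuclear receptor *Pparg*, while *Abcb1a* is one of the mouse genes for P-glycoprotein, which pumps many drugs out of cells. In tumors, macrophages are known for high expression of *Apoe* and of the cholesterol exporters, and endothelium, adipocytes, platelets and several lymphocytes also use some of these genes.

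To show the sequence before the start of these genes, a set of promoter windows from RefSeq (build GRCm38.p6) was used. The set held an entry for 6 of the 7 genes, a single one for 4 of them and none for *Abcg1*. For each of the 4, the 250 bases before the transcription start of that entry are given 5′ to 3′ on the strand of the gene. *Abca1* lies on the minus strand, with the window at chr4:53159896-53160145. *Abcb1a* lies on the plus strand, at chr5:8566841-8567090. *Cd36* is on the minus strand at chr5:17835897-17836146, and *Lrp1* on the minus strand at chr10:127621149-127621398. The *Cd36* window lies inside the gene, which spans 17781690 to 17888959, so its start is not the gene's outer end. The *Abca1* window overlaps the gene, which ends at 53159988. Positions in both are counted from the start of the promoter entry. Capitals mark matches on either strand to 5 motifs, none of which overlapped in these 4 windows. The direct repeat DR4, bound by liver X receptors, is 2 copies of AGGTCA with 4 bases between them, and DR1, bound by Pparg, is the same with 1 base between them. Up to 3 mismatches were allowed in either repeat. The GC box (GGGCGG), the TATA motif (TATAAA) and the STAT motif GAS (TTCNNNGAA) were searched without a mismatch.
Abca1: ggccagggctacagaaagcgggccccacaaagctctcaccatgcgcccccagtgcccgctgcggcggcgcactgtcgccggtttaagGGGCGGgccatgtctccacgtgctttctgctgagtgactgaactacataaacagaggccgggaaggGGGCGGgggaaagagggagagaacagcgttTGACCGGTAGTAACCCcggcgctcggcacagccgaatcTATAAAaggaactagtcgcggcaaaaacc
Abcb1a: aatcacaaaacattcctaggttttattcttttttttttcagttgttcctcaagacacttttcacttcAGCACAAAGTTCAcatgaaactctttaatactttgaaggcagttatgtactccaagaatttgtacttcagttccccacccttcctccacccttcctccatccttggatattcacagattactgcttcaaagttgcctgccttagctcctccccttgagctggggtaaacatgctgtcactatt
Cd36: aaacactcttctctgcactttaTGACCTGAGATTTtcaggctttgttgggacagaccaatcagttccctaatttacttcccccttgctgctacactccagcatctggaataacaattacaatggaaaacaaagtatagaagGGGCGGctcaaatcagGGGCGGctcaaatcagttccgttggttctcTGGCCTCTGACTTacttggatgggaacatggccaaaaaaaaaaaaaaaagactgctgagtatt
Lrp1: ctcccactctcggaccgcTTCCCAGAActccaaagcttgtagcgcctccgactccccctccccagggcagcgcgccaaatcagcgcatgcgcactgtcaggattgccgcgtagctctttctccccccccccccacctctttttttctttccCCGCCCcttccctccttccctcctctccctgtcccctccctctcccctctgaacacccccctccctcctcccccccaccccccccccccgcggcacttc

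The *Abca1* window held a DR4 match starting at position −67 from the start site, with 3 mismatches, along with a TATA motif at −29 and 2 GC boxes. In *Cd36* there were 2 DR1 matches, at −228 with 3 mismatches and at −63 with 2, and 2 GC boxes. *Abcb1a* held a DR1 match at −183 with 3 mismatches and none of the other motifs. *Lrp1* held a GC box at −99 and a GAS motif at −232. These matches are common. Of all 32851 promoter windows of this length, 18.5% held a DR4 match, 21.3% a DR1 match, 32.7% a GC box, 12.4% a TATA motif and 7.02% a GAS motif. A match describes the letters of the window and does not show binding.

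Among the 7 genes, *Abcg1*, *Abcb1a* and *Cd36* rose in Siah2 KO tumors and *Apoe* and *Lrp1* fell, at an adjusted p under 0.05 by limma over all 770 genes. On the whole panel 41.0% of genes passed this test, 31.3% higher and 9.74% lower in Siah2 KO tumors, so that calls among the 7 genes stand against many calls elsewhere. For 4 of the 7, *Abcg1*, *Abcb1a*, *Lrp1* and *Cd36*, the groups did not overlap, compared with 31.6% of all genes. The median log2 difference was 0.52 over the 7 genes and 0.24 over all 770. Each tumor is a mixture of injected and host cells, and in such bulk samples fewer cells of a type and less RNA per cell cannot be told apart. Differences below are on the log2 scale of the normalized count plus 1, Siah2 KO minus WT, with the standard error (SE) of limma's fit.

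**Figure D1:**
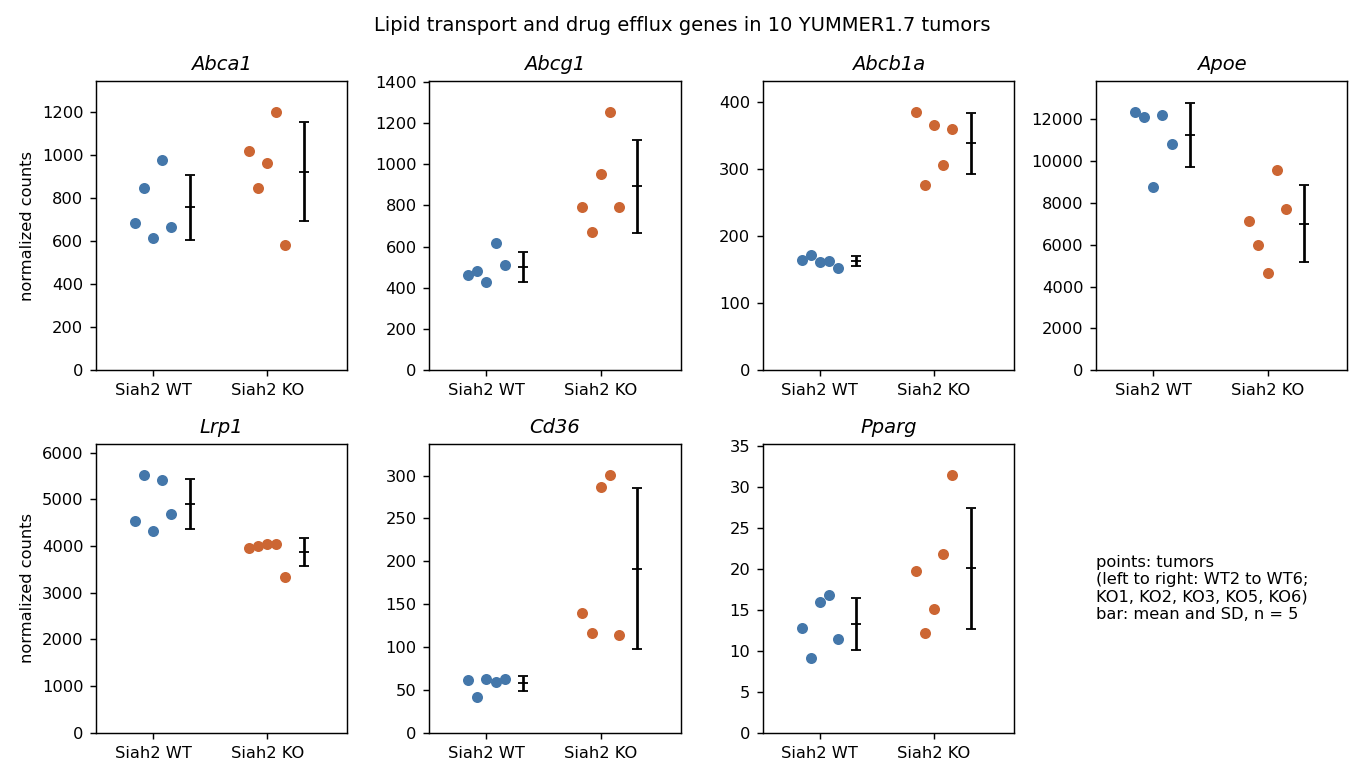
Normalized counts of the 7 genes (linear axes from 0, one panel per gene) in 5 Siah2 WT and 5 Siah2 KO tumors, with 1 point per tumor and the mean ± SD beside each group. *Abcg1*, *Abcb1a* and *Cd36* lie higher in all 5 Siah2 KO tumors, *Lrp1* lies lower in all 5 and *Apoe* in 4, while *Abca1* and *Pparg* overlap.

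The cholesterol exporters differed from each other. *Abcg1* was at 461, 483, 430, 619 and 512 normalized counts in WT2 to WT6. The Siah2 KO tumors, in the order KO1, KO2, KO3, KO5 and KO6, were at 791, 671, 951, 1253 and 792. The lowest value with Siah2 KO, 671 in KO2, exceeded the highest with WT, 619 in WT5, and the means were 892 ± 225 against 501 ± 72.4 (SD, n = 5 each). The log2 difference was 0.81 (SE 0.17), or 1.75-fold.

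*Abca1* was at 683, 848, 614, 976 and 665 normalized counts in WT2 to WT6. KO1, KO2, KO3, KO5 and KO6 were at 1020, 848, 964, 1199 and 583. The groups overlapped: KO1 and KO5 exceeded all WT tumors, whereas KO6 was below all of them. Means were 923 ± 229 and 757 ± 151 (SD, n = 5 each), a log2 difference of 0.27 (SE 0.20) that did not pass the test and was near the panel median of 0.24. This value rested on single tumors, at 0.16 without KO5 and 0.42 without KO6.

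The ratio of both exporters within a tumor does not depend on how tumors are scaled. *Abca1* over *Abcg1* ranged from 0.38 to 0.81 on the log2 scale with WT and from −0.44 to 0.37 with Siah2 KO. The groups did not overlap on this scale, though the highest Siah2 KO tumor and the lowest WT tumor were close. The difference was −0.54 (SE 0.16), given as a description, since the genes were chosen with it in view.

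The drug efflux gene *Abcb1a* was the steadiest of the 7 genes in WT tumors. It was at 164, 172, 162, 163 and 152 normalized counts in WT2 to WT6, a coefficient of variation of 4.31%. The counts in KO1, KO2, KO3, KO5 and KO6 were 385, 276, 365, 305 and 359. All Siah2 KO tumors were well above the WT tumors, the lowest of them, KO2, at 276 against a highest WT value of 172. The means were 338 ± 45.4 and 163 ± 7.01 (SD, n = 5 each). The log2 difference of 1.04 (SE 0.10), or 2.06-fold, lay between 0.99 and 1.11 with each tumor left out in turn and ranked 79 from the top of 770 genes. Binding of the probe to RNA of its close paralog *Abcb1b*, which is not among the 770 genes, was not tested.

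The lipid carrier *Apoe* was measured at high normalized counts in every tumor. It was at 12352, 12134, 8752, 12229 and 10826 in WT2 to WT6, where WT4 was the lowest. KO1, KO2, KO3, KO5 and KO6 had 7143, 5988, 4656, 9557 and 7711. Values of KO1, KO2, KO3 and KO6 were under the whole WT range, and only KO5 overlapped, being above WT4. Means were 7011 ± 1843 and 11258 ± 1531 (SD, n = 5 each), and *Apoe* fell by 0.71 on the log2 scale (SE 0.19).

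*Lrp1*, a large endocytic receptor for *Apoe*-bearing particles, proteases and matrix proteins, had the smallest difference of the genes that passed the test. It was at 4534, 5528, 4325, 5406 and 4694 normalized counts in WT2 to WT6. The Siah2 KO values, from KO1 through KO6, were 3960, 3999, 4046, 4038 and 3340. The highest Siah2 KO value, in KO3, was under the lowest WT value, in WT4, and 4 of the Siah2 KO tumors lay close together between 3960 and 4046. Means were 3876 ± 302 and 4897 ± 538 (SD, n = 5 each), and *Lrp1* fell by 0.33 on the log2 scale (SE 0.10). It did not pass the test without WT3, at −0.29, or without WT5, at −0.30.

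*Cd36*, the scavenger receptor and fatty acid transporter, had the largest difference of the 7 genes. It was at 61.7, 42.3, 62.7, 59.1 and 62.6 normalized counts in WT2 to WT6. The 5 Siah2 KO tumors KO1, KO2, KO3, KO5 and KO6 had 140, 116, 287, 301 and 114. The groups were far apart, and the Siah2 KO tumors lay at 2 levels, with KO3 and KO5 at 287 and 301 and the other 3 at 114 to 140. The coefficient of variation was 49.2% with Siah2 KO against 15.1% with WT. Means were 191 ± 94.1 and 57.7 ± 8.73 (SD, n = 5 each), a log2 difference of 1.59 (SE 0.30), or 3.01-fold, which ranked 29 from the top of 770 genes. Without KO5 it was 1.40 and without KO6 1.74.

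*Pparg*, the fatty acid-activated nuclear receptor, had few counts. It was at 12.8, 9.13, 15.9, 16.9 and 11.5 normalized counts in WT2 to WT6. With Siah2 KO it was at 19.8, 12.1, 15.1, 21.8 and 31.5 in KO1, KO2, KO3, KO5 and KO6. KO1, KO5 and KO6 exceeded the WT range, and KO2 and KO3 lay inside it. Means were 20.05 ± 7.42 and 13.2 ± 3.18 (SD, n = 5 each), a log2 difference of 0.52 (SE 0.25) that did not pass the test. Without KO2 it was 0.68 and passed, and with all values under 20 raised to 20 it was 0.15.

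The size of these differences depended on how the tumors were made comparable. The factor of each tumor, inferred from the deposited values, ranged from 0.918 to 1.32 for WT and from 1.03 to 1.60 for Siah2 KO. Normalized counts of all genes summed to 512955 to 585366 for WT and 575773 to 741789 for Siah2 KO. When the tumors were scaled to the median of the 750 endogenous genes, the median difference over all genes went from 0.24 to −0.0074, and genes called went from 241 higher and 75 lower to 163 higher and 152 lower. The same 5 of the 7 genes passed, with *Abcg1* at 0.54, *Abcb1a* at 0.78, *Cd36* at 1.33, *Apoe* at −0.98 and *Lrp1* at −0.60, while *Abca1* was at 0.00034. With the factor removed and the tumors scaled to the positive control probes, the calls of *Abcg1*, *Abcb1a*, *Apoe* and *Lrp1* were lost. All 4 kept their direction, at 0.65, 0.88, −0.88 and −0.50. *Cd36* still passed, at 1.43. On the whole panel that scaling called 94 genes.

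**Figure D2:**
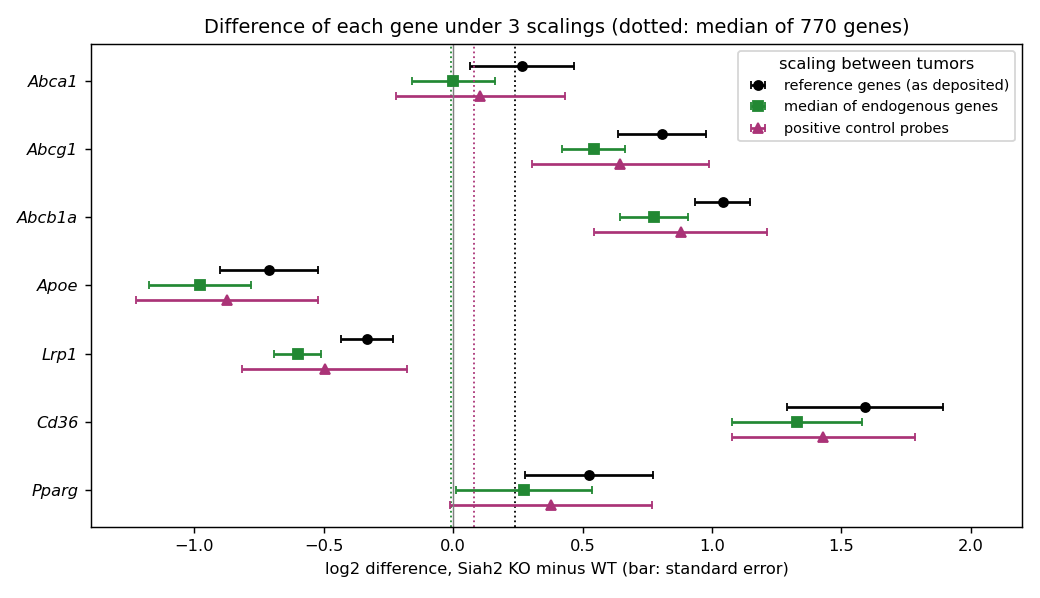
Log2 difference between Siah2 KO and WT tumors for each gene (x axis, 5 tumors per group, bar: SE) under 3 ways of scaling the tumors, with the median of 770 genes under each as a dotted line. The 7 genes move together to the left when the median of endogenous genes is used, and *Apoe* and *Lrp1* are below 0 and *Cd36*, *Abcb1a* and *Abcg1* above 0 under all 3.

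Ratios between genes of the same tumor are free of this scaling. *Abcg1* over *Apoe* ranged from −4.74 to −4.30 on the log2 scale with WT and from −3.28 to −2.29 with Siah2 KO. The groups were apart, with a difference of 1.52 (SE 0.20). For *Abcb1a* over *Lrp1* the difference was 1.38 (SE 0.13) and for *Apoe* over *Cd36* it was −2.32 (SE 0.40), both without overlap. The carrier and its receptor differed less from each other: *Apoe* over *Lrp1* was −0.38 (SE 0.21), with overlap. These ratios were picked from all pairs of the 7 genes. They are a description, since the genes were chosen with the differences known.

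Markers of several cell types moved with the groups, and their part in the results was not tested. All 6 leukocyte markers rose, and their summed level was 3895 to 4712 normalized counts with WT and 5900 to 8848 with Siah2 KO. All 5 NK cell markers rose (924 to 1180 and 1620 to 2498), as did 4 of 7 T cell markers (489 to 629 and 675 to 1195). *Cd8a* was among these T cell markers, at 1.13. Whether T cells added to the level of the NK cell markers was not tested. All 4 fibroblast markers fell (16494 to 21344 and 10332 to 12326). Of the 7 macrophage markers 2 rose, *Cd68* and *Msr1*, and 1 fell, *Mrc1*, with summed levels that overlapped at 7001 to 8602 and 6883 to 10974.

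Of the 6 endothelial markers *Pecam1* rose, and *Cdh5* and *Vwf* fell, with sums of 700.4 to 809 in WT and 676 to 783 in Siah2 KO tumors. *Tek* (−0.71), *Kdr* (−0.31) and *Tie1* (−0.17) did not pass and were also below 0, and the list median was −0.38. In the sums, the rise of *Pecam1*, from a mean of 164 in WT to 304 in Siah2 KO tumors, offset the lower levels of the rest. Of the 3 melanoma cell markers 2 fell, *Cspg4* and *S100b*, and *S100b* lay near the floor in Siah2 KO tumors, at 1.03 to 2.51 normalized counts against 6.29 to 26.7. Their sums were 438 to 594 and 224 to 405. The label of the tissue is melanoma, and these 3 genes are the markers of such cells used here. Neither the 2 platelet markers (9.48 to 13.5 and 4.02 to 22.6 in sum) nor *Cfd*, the 1 adipocyte marker (17.3 to 61.7 and 25.3 to 40.8), passed the test.

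Set against these markers in the same tumor, the genes fell into different places. *Abcg1* relative to the median of the leukocyte markers differed by −0.026 (SE 0.063) between the groups, and the tumors overlapped. *Abcb1a* differed by 0.21 (SE 0.19) and *Cd36* by 0.76 (SE 0.26) on that scale, also with overlap, whereas *Apoe* at −1.55 (SE 0.19) and *Lrp1* at −1.17 (SE 0.13) did not overlap. Relative to the macrophage markers, *Abca1* differed by 0.020 (SE 0.15). *Abcb1a* (0.79), *Cd36* (1.35), *Apoe* (−0.96) and *Lrp1* (−0.58) were without overlap on the macrophage scale, and *Abcg1* (0.56) overlapped. Relative to the endothelial markers, *Cd36* (1.83), *Abcb1a* (1.28) and *Abcg1* (1.05) did not overlap and *Lrp1* differed by −0.093 (SE 0.17). Relative to the NK cell markers, *Abcb1a* was at −0.43 (SE 0.18) and *Cd36* at 0.12 (SE 0.24), both with overlap. On the NK cell scale *Abcg1* (−0.67), *Abca1* (−1.21), *Apoe* (−2.19) and *Lrp1* (−1.81) were lower in all Siah2 KO tumors. Relative to the T cell markers, *Abcg1* was at −0.095 (SE 0.22), with overlap. Relative to the fibroblast markers, *Lrp1* was higher in all Siah2 KO tumors, by 0.86 (SE 0.13), and *Apoe* was at 0.48 (SE 0.20) with overlap. These are descriptions of how the levels stand to each other. Only *Cd36* kept the same direction over all the marker lists. The direction of every other gene, *Lrp1* among them, depended on the list it was set against.

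**Figure D3:**
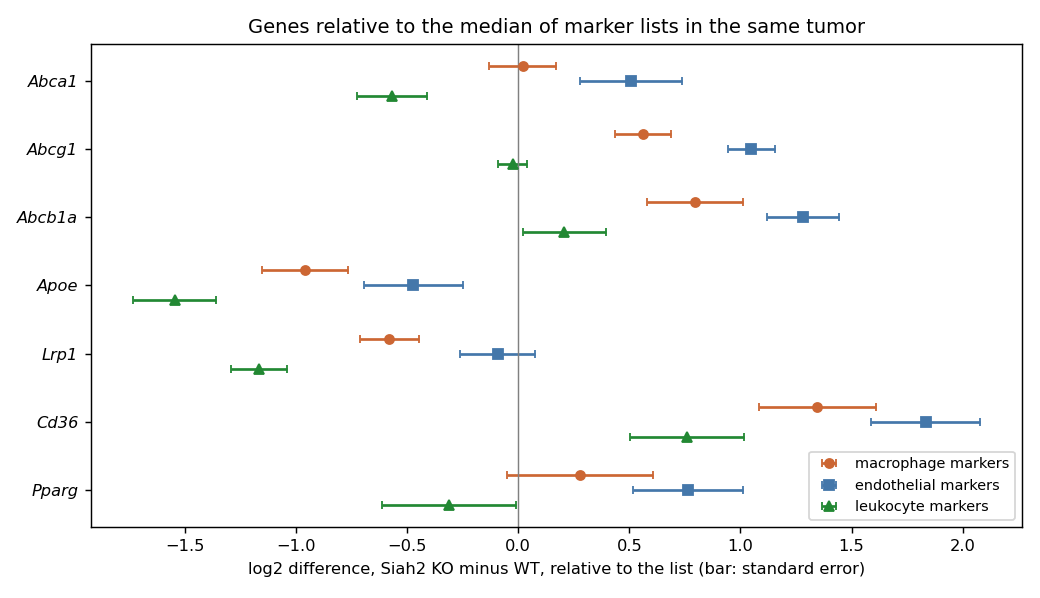
Log2 difference between Siah2 KO and WT tumors for each gene after subtracting, in each tumor, the median log2 level of macrophage, endothelial or leukocyte markers (x axis, 5 tumors per group, bar: SE). *Abcg1* is near 0 relative to leukocyte markers, *Abca1* near 0 relative to macrophage markers and *Lrp1* near 0 relative to endothelial markers, whereas *Cd36* is above 0 and *Apoe* below 0 on all 3 scales.

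To see whether the genes varied together apart from the difference between groups, each group's mean was subtracted and the 21 pairs of genes were correlated over the 10 tumors. This does not use the contrast with which the genes were chosen. By a two-sided exact permutation test within the groups, 0 of 21 pairs passed at an adjusted p under 0.05, and 1 had an unadjusted p under 0.05. That pair was *Abca1* and *Lrp1*, with r = 0.87 (exact permutation p = 0.0051, adjusted p = 0.11, n = 10). Its Spearman rho was 0.79 (exact permutation p = 0.014, adjusted p = 0.28). Without the 2 tumors farthest from the median of *Abca1*, KO5 and KO6, r was 0.87, and without KO6 and WT4, the farthest for *Lrp1*, it was 0.71. With median scaling r was 0.49.

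*Abca1* and *Abcg1* had r = 0.66 (exact permutation p = 0.077, adjusted p = 0.54) and rho = 0.56 (exact permutation p = 0.12). Without KO5 and KO6, the tumors farthest from the median of *Abca1*, r was 0.62. Without KO5 and WT5, the farthest for *Abcg1*, it was 0.26, and with median scaling it was 0.36. *Abcg1* and *Cd36* had r = 0.73 (exact permutation p = 0.060, adjusted p = 0.54) and rho = 0.55 (exact permutation p = 0.18), and r was 0.67 without KO5 and WT5, 0.56 without KO5 and KO6 and 0.52 with median scaling. KO5 was the highest Siah2 KO tumor for *Abca1*, *Abcg1*, *Cd36* and *Apoe*. *Abcb1a* had an r between −0.082 and 0.33 with the other 6 genes, a range that rested on single tumors. Without KO2, its r was −0.68 with *Abcg1*, −0.62 with *Cd36* and −0.40 with *Apoe*, and without KO5 it was 0.44 with *Abcg1*. Over the 21 pairs, 14 were positive and the median r was 0.13, and over 180901 pairs of the 602 genes whose mean reached 20 normalized counts it was 0.23. With positive control scaling 16 of the 21 pairs passed. That scaling divides all genes of a tumor by the same level, from 746 in WT5 to 1861 in WT3. The share of all panel pairs passing under it was not computed, so the count is not a result about these genes.

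**Figure D4:**
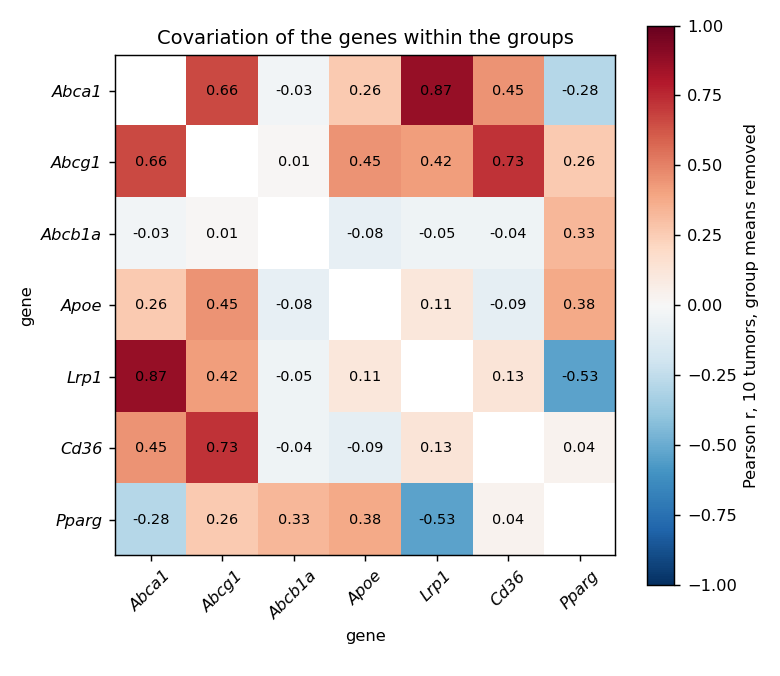
Pearson r (colour and printed value, from −1 to 1) between each pair of the 7 genes over 10 tumors after each group's mean log2 level was subtracted. *Abca1* with *Lrp1* (0.87) and *Abcg1* with *Cd36* (0.73) are the highest, and *Abcb1a* is near 0 with most genes when all 10 tumors are used.

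The panel genes most like each gene within the groups were also listed, by Pearson r over the 10 tumors among the same 602 genes, as a description. For *Abca1* they were *Havcr2* (0.95), *Trem2* (0.93) and *Il18r1* (0.93). For *Abcg1* they were *Il21r* (0.98), *H2-Eb1* (0.98) and *Fcer1g* (0.96), and for *Cd36* *Lta* (0.95), *Csf3r* (0.95) and *Nod1* (0.93). *Lrp1* was most like *Maf* (0.96), *Cd84* (0.92) and *App* (0.87), a gene for one of its own ligands. For *Apoe* the values were lower, with *Il16* (0.78), *Tlr7* (0.76) and *Tnfrsf11a* (0.76), and for *Abcb1a* they were *Fadd* (0.84), *Edc3* (0.83) and *C1qbp* (0.82). *Pparg* was most like *Ecsit* (0.93), *Gtf3c1* (0.84) and *Rrad* (0.79). The points share the scaling of each tumor, and the log2 sum of all normalized counts had r = 0.85 with *Abca1*, 0.84 with *Abcg1*, 0.75 with *Cd36* and 0.72 with *Lrp1*, but 0.087 with *Apoe* and 0.0031 with *Abcb1a*.

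Among 42 other genes of lipid handling and of the partners of these genes, 16 rose and 6 fell, beside 31.3% and 9.74% of all genes on the panel. The median log2 difference was 0.25 against 0.24 over the panel. The 7 scavenger receptors, which take up modified lipoprotein and debris, went both ways. *Msr1* (0.92), *Cd68* (0.87), *Marco* (0.84) and *Cxcl16* (0.84) rose, and *Cd163* (−1.86) and *Colec12* (−0.78) fell. *Trem2*, a lipid-sensing receptor of macrophages, was at −0.036 (SE 0.20). *Cd163*, the haptoglobin-hemoglobin receptor, had 34.3 ± 7.62 normalized counts with Siah2 KO and 133 ± 53.0 with WT (SD, n = 5 each; adjusted p = 0.00082 by limma).

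Of 3 secreted lipid-binding proteins only *Clu*, or apolipoprotein J, passed. It had 167 ± 17.1 normalized counts with Siah2 KO and 632 ± 84.0 with WT (SD, n = 5 each), and fell by 1.91 on the log2 scale (adjusted p = 3.9e-06 by limma). *Clu* thus moved the same way as *Apoe*, while *Lbp* (−0.33) and *Saa1* (0.14) did not pass. *Saa1* lay near the floor, at a mean of 2.10 normalized counts with Siah2 KO and 1.74 with WT.

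For the ligands of *Lrp1*, *Thbs1* (1.63) and *Plau* (0.90) rose, *Mmp9* fell by 1.49 on the log2 scale, and *A2m*, *App* and *Ltf* did not pass. *Ltf* lay near the floor, at a mean of 1.30 normalized counts with Siah2 KO and 1.13 with WT. *Thbs1*, or thrombospondin 1, is also a ligand of *Cd36* and had 1116 ± 272 normalized counts with Siah2 KO and 357 ± 64.2 with WT (SD, n = 5 each; adjusted p = 0.00024 by limma). With it, *Lyn* (0.62), *Tlr6* (0.52), *Tlr4* (0.35) and *Fyn* (0.30), kinases and partner receptors of *Cd36*, rose. Thus 5 of these 6 genes passed, beside 31.3% of all genes that were higher, and *Tlr2* (0.30) did not. *Fyn* was near the panel median of 0.24. Of the 4 genes of apoptotic cell uptake, *Mfge8* fell by 0.33 on the log2 scale, and *Axl*, *Mertk* and *Timd4* did not pass.

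Among the 5 lipid mediator and steroid enzymes, *Ptgs2* (2.28), the inducible prostaglandin synthase, *Hsd11b1* (1.16), which regenerates active glucocorticoid, and the phospholipase *Pla2g6* (0.55) rose. In the list of *Pparg* coactivators and alternative activation, *Arg1* rose by 2.06 and the mannose receptor *Mrc1* fell by 0.89 on the log2 scale, and the other 5, with *Crebbp* and *Ep300* among them, did not pass. *Arg1* and *Mrc1* are both used as markers of alternative activation, a macrophage state in which *Pparg* is known to act. Of the 3 other ABC genes, the peptide transporters *Tap1* (0.76) and *Tap2* (0.70), which load antigen and carry no lipid, rose, and *Abcf1* (0.19) did not pass. *Cd1d1* (0.46) and *Cd1d2* (1.53), which present lipid antigens, did not pass either. *Cd1d2* had few counts, at a mean of 10.9 normalized counts with Siah2 KO and 2.45 with WT.

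**Figure D5:**
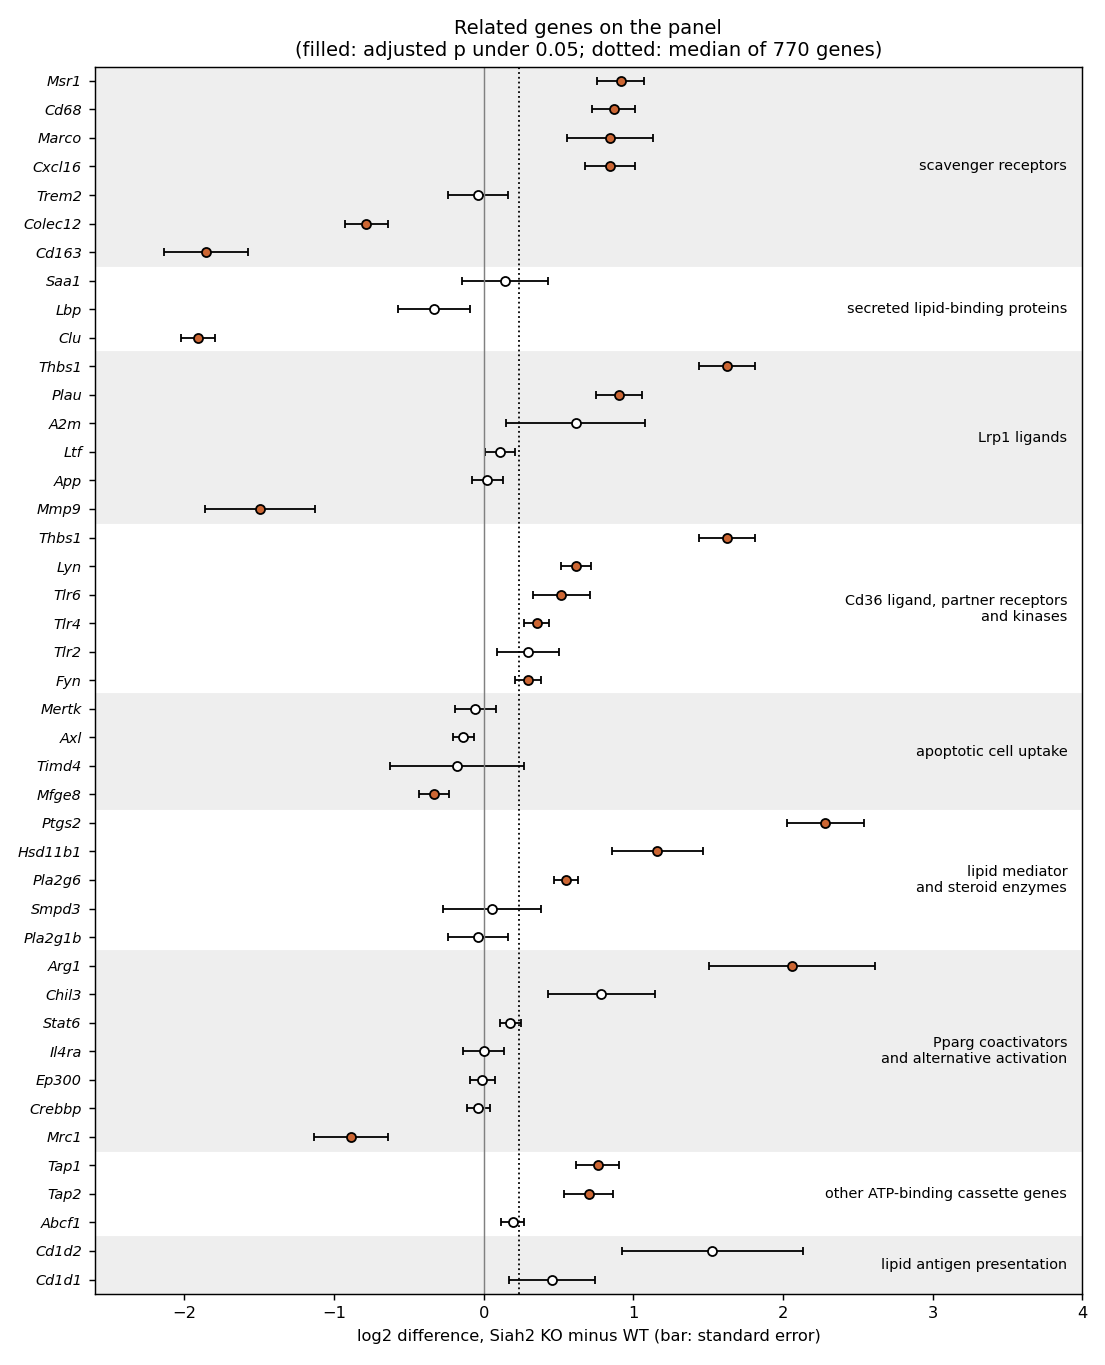
Log2 difference between Siah2 KO and WT tumors (x axis, 5 tumors per group, bar: SE) for 42 related genes in 9 lists, *Thbs1* being in 2 of them. Filled points passed at an adjusted p under 0.05, 16 genes higher and 6 lower, with *Ptgs2* the highest at 2.28 and *Clu* the lowest at −1.91.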

How the data were processed

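Tumor RNA of 5 Siah2 WT and 5 Siah2 KO mice was measured with the NanoString panel, and groups were taken from the labels. Probe signal was deposited by the authors as normalized counts made with nSolver by scaling to the geometric mean of 20 reference genes. Each tumor's factor was inferred from the equal steps of its low values. Among values over the floor and below 150, 100% per tumor lay within 0.1 of a step of that factor, with an offset that was not whole. A subtracted constant would leave such an offset, but the study's methods describe none. Raw counts were not recovered. The lowest values were 1 in tumors with a factor under 1 and the factor itself in the others. Before the factor the counts summed to between 382853 and 581551 per tumor, and 39 to 84 genes lay at the floor.

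The log2 of the value plus 1 of Siah2 KO and WT tumors was compared over all 770 genes by the two-sided moderated test of limma 3.58.1 (lmFit, eBayes) run in R 4.3.3, with Benjamini-Hochberg adjustment. Means and SD are of normalized counts. Pairs of the 7 genes were tested by exact permutation over 14400 orders within the groups (Python 3.11.15, scipy 1.17.1). Lists were described by counts and medians without a set test. The genes, lists and tests were chosen with earlier results of these data known. The text names the 7 genes, the related genes that passed or define a list, the 3 most similar genes of each, and markers. Fits were tested on simulated data. Alternatives were 7 settings and leaving out each tumor, and the 8 tumors with shared numbers without a block were added after seeing the data. The labels give no batch and do not say that the tumors are from separate experiments, so that p-values measure the spread between these tumors. The series' own description gives other cells and another gene; the labels of the samples were followed. The sequencing and other assays of the study were not analysed here.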

Additional observations from a re-analysis of the deposited data

Results flagged for a closer look

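In 14 groups of 5 tumors, 1 per gene and genotype, the highest and lowest tumor were compared with the rest by Dixon's ratio of the gap to the whole range, which chance passes in about 1 of 20 groups. In Siah2 KO tumors *Lrp1* was at 3340 normalized counts in KO6 and between 3960 and 4046 in the other 4, a ratio of 0.879. Without KO6 the log2 difference of *Lrp1* was −0.28. In WT tumors *Cd36* was at 42.3 normalized counts in WT3 and between 59.1 and 62.7 in the other 4, a ratio of 0.822.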

How the results depend on the processing

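Under median scaling, a pseudocount of 10, a floor of 20, a filter at a mean of 20 and the methods' t-test, 5 of the 7 genes passed, and the panel count was between 306 and 339. *Pparg* gave no value under the filter. With the factor removed and the tumors scaled to positive controls, 1 of the 7 genes and 10 of the 42 related genes passed. On the panel 94 genes passed, 59 higher and 35 lower. Under that scaling 16 of 21 pairs passed, the share of all panel pairs was not computed, and the cause was not tested. With each tumor left out in turn, between 4 and 6 of the 7 genes passed, between 268 (without WT3) and 334 (without KO6) genes of the panel, between 19 and 22 related genes and between 0 and 0 pairs. No difference of the 7 genes changed sign under any of these settings.

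When replicate number was a block, on the 8 tumors that share a number with the other group, 4 of the 7 genes, 235 of the panel and 16 related genes passed, and *Lrp1* was at −0.39 and did not pass. The same 8 tumors without a block gave 5, 232 and 15. Deviations of tumors with the same number correlated at 0.051, 0.14, 0.18 and 0.49, so that the numbers were not taken as pairing. The pairs of genes were recomputed under both scalings, the pseudocount, the floor and without each tumor. *Pparg*, at 9.13 to 31.5 normalized counts over a floor of 1 to 1.6, had the fewest counts of the 7 genes.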
